A study of Mus musculus with 16 samples.

Results

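The genes described here are 10 genes of the mammalian circadian clock, measured by mRNA sequencing in primary mouse hepatocytes, the parenchymal cells of the liver. They were taken by name from the 55450 gene rows of the count table, namely *Arntl*, *Clock*, *Per1*, *Per2*, *Per3*, *Cry1*, *Cry2*, *Nr1d1*, *Nr1d2* and *Dbp*. The rule itself uses no measured value, but the set was chosen with earlier results of these data known. All 10 were among the 11675 genes that passed the filter on low values (a mean of at least 1 CPM, a gene's counts scaled to a fixed library total, over the 16 libraries). Hepatocytes came from wild-type mice (adult male C57BL/6J, per the study's methods), were freed by enzymatic perfusion of the liver and collected by low-speed centrifugation, and were cultured overnight in serum-containing medium with insulin, transferrin and selenium. The 4 treatments, with 4 libraries each, were untreated, sodium itaconate (10 mM), a chemically defined lipid mixture (diluted 1:10, holding cholesterol and saturated and unsaturated fatty acids), and the lipid mixture together with itaconate. Itaconate is a metabolite that activated macrophages make in quantity, and the study asked what it does to hepatocytes with and without a lipid load. The libraries carry the replicate letters A to D, which the labels do not explain as animals, cultures or days, so p-values measure only the spread between these libraries, which may in part be technical.

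The clock is a feedback loop of transcription. The proteins of *Clock* and *Arntl* (BMAL1) form an activator that binds E-box sequences in the genes of the period (*Per*) and cryptochrome (*Cry*) repressors, of the nuclear receptors REV-ERB alpha and beta (*Nr1d1*, *Nr1d2*) and of the output factor *Dbp*. PER and CRY proteins then inhibit the activator, while REV-ERB proteins repress *Arntl* and compete with the ROR receptors for the same sites. In the liver, levels of these mRNAs run through a daily cycle, and cultured cells can be reset together by serum or glucocorticoids and then drift apart. The labels give no hour of isolation or collection and no series of times for any treatment. A shift in time and a change in level therefore cannot be told apart here. In bulk RNA, fewer cells that express a gene and less of its RNA per cell cannot be told apart either.

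Short stretches of the promoters are shown first for 5 of these genes, *Clock*, *Cry1*, *Cry2*, *Nr1d1* and *Nr1d2*. All 5 were lower with lipid + itaconate than with itaconate alone (a comparison in which 47.0% of all genes were called). A stretch was taken only where a sequence listed below lay before the transcription start, so its presence in these 5 was a condition. *Per1* and *Per3* also held such a sequence but are not shown. The stretches were read from RefSeq windows of GRCm38.p6 that span 250 bases before to 50 bases after a transcription start. The *Clock* stretch lies before a RefSeq start that is itself inside the gene span given for *Clock* below. Of these, 13 windows matched 9 of the 10 genes (*Per2* had no entry). Capitals mark a match, on either strand, to the E-box CACGTG, to its variant CACGTT, which reads AACGTG on the other strand, or to AGGTCA, which reads TGACCT on the other strand and is the core that REV-ERB and ROR receptors bind. All stretches run 5′ to 3′ on the minus strand, which is the strand of each gene.
*Clock*, chr5:76303601-76303636: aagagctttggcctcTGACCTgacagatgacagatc
*Cry1*, chr10:85185094-85185148: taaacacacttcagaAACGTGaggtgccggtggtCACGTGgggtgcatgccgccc
*Cry2*, chr2:92434215-92434250: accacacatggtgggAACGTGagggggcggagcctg
*Nr1d1*, chr11:98775385-98775420: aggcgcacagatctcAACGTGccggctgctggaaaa
*Nr1d2*, chr14:18239163-18239198: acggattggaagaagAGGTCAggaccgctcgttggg
The E-box CACGTG was present in 2 of the 13 windows (of *Per1* and *Cry1*) and in 7.15% of all 32851 windows. CACGTT was present in 3 of the 13 (of *Cry1*, *Cry2* and *Nr1d1*) and in 4.68% of all windows. AGGTCA was present in 4 of the 13 (of *Arntl*, *Clock*, *Per1* and *Nr1d2*) and in 16.3% of all. The D-box TTATGTAA, which DBP and its relatives bind, occurred only in the *Per3* window, at 205 and 158 bases before the start, and in 0.938% of all windows. The cyclic-AMP response element TGACGTCA was in none of the 13 windows and in 1.79% of all. A match is a stretch of letters and not a measured binding site.

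All 16 libraries held hepatocyte RNA. The 10 hepatocyte markers, among them *Alb*, *Ttr* and *Apoa1*, were all detected and summed to 31903 to 56323 CPM. Markers of other liver cells were mixed in level. Under a mean of 1 CPM were 3 of 10 macrophage markers (*Timd4*, *Vsig4* and *Ptprc*) and 7 of 8 stellate cell markers. So were 5 of 8 bile duct cell markers, among them *Krt19*, *Krt7*, *Epcam* and *Cftr*, and 1 of 8 endothelial markers. The highest means were those of *Spp1* (529 CPM) and *Sox9* (111 CPM) for bile duct cells and *Cd68* (218 CPM) for macrophages. Totals ran from 22346049 to 35512004 counts (median 27719372), and a clock gene had between 48 (*Per3*) and 4722 (*Nr1d2*) counts in a library. Over all genes, lipid + itaconate replicate B stood farthest from the others of its treatment, at 106 to 147 times counting noise (chi-square per gene) where every other pair of libraries of 1 treatment was at 64.5 or less.

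In the clock genes themselves, the library that stood apart was lipid + itaconate replicate C. It had the highest level of the 4 libraries of its treatment for both activators and the lowest for all 8 other genes, while no other library was the lowest of its treatment in more than 4 of those 8. *Arntl* was 19.0 CPM there against 12.7, 14.6 and 17.3 CPM in replicates A, B and D, and *Nr1d1* was 51.6 CPM against 99.2, 77.2 and 76.7 CPM. The map of deviations shows the opposite arrangement in the lipid library of the same letter, where *Arntl* was the lowest of its treatment (10.4 CPM) and *Per1* (76.6 CPM) and *Nr1d2* (87.1 CPM) were the highest. Lipid + itaconate replicate C also had the highest share of counts from mitochondrial genes, 6.01% against 3.27% to 4.97% in the other 15. The part of this in its clock gene levels was not tested. Comparisons that involve lipid + itaconate are also given without replicate C below. That library was picked by the levels of these same genes, so calls gained without it are not separate support.

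**Figure D1:**
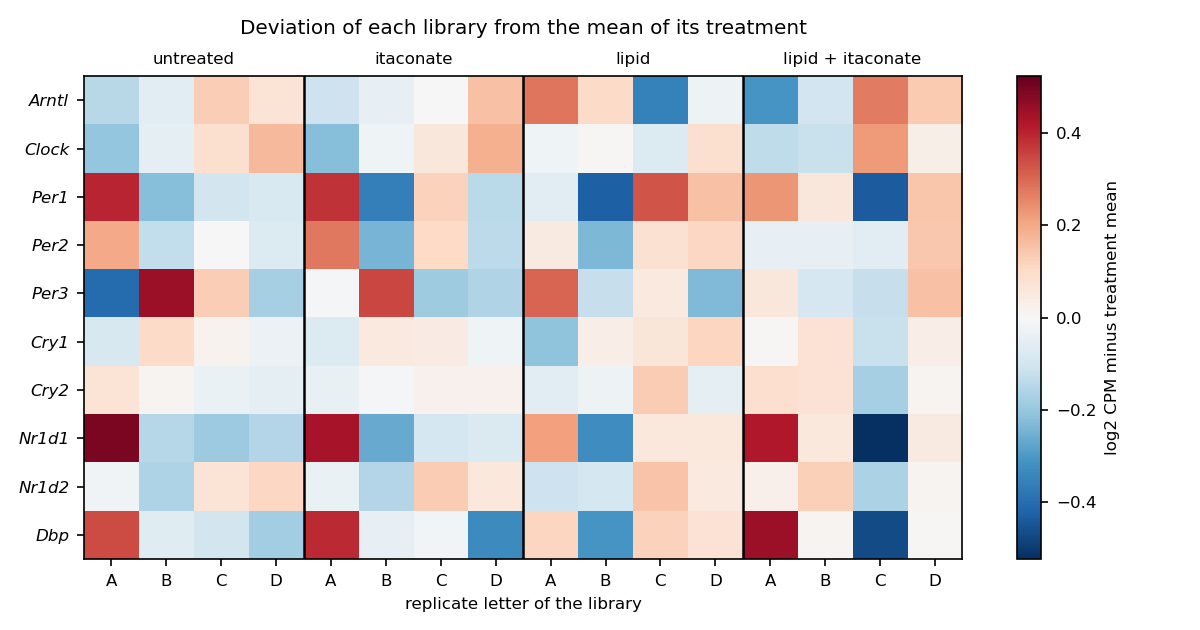
Deviation of each library from the mean of its treatment for the 10 clock genes (rows), in log2 CPM, for the 16 libraries in columns grouped by treatment and ordered by replicate letter. Red is above and blue below the treatment mean; lipid + itaconate replicate C is red for *Arntl* and *Clock* and blue for the 8 other genes, and replicate A is red for *Nr1d1* and *Dbp* in all 4 treatments.

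Levels per kilobase of exon put *Nr1d1* first and *Per3* last in every treatment. In untreated hepatocytes *Nr1d1* stood at 29.5 ± 7.44 CPM per kilobase (SD, n = 4) and *Nr1d2* at 19.0 ± 1.53. *Cry1* (11.7 ± 0.639) and *Per1* (10.7 ± 2.17) followed and overlapped each other, as did the next 3, *Clock* (4.75 ± 0.525), *Dbp* (4.59 ± 0.788) and *Cry2* (4.29 ± 0.162). *Arntl* (2.35 ± 0.199) and *Per2* (1.97 ± 0.199) also overlapped, and *Per3* was at 0.315 ± 0.0820. With the lipid mixture *Per2* stood above *Arntl* on this scale, at 2.78 ± 0.291 against 1.79 ± 0.320 CPM per kilobase, and their libraries did not overlap.

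**Figure D2:**
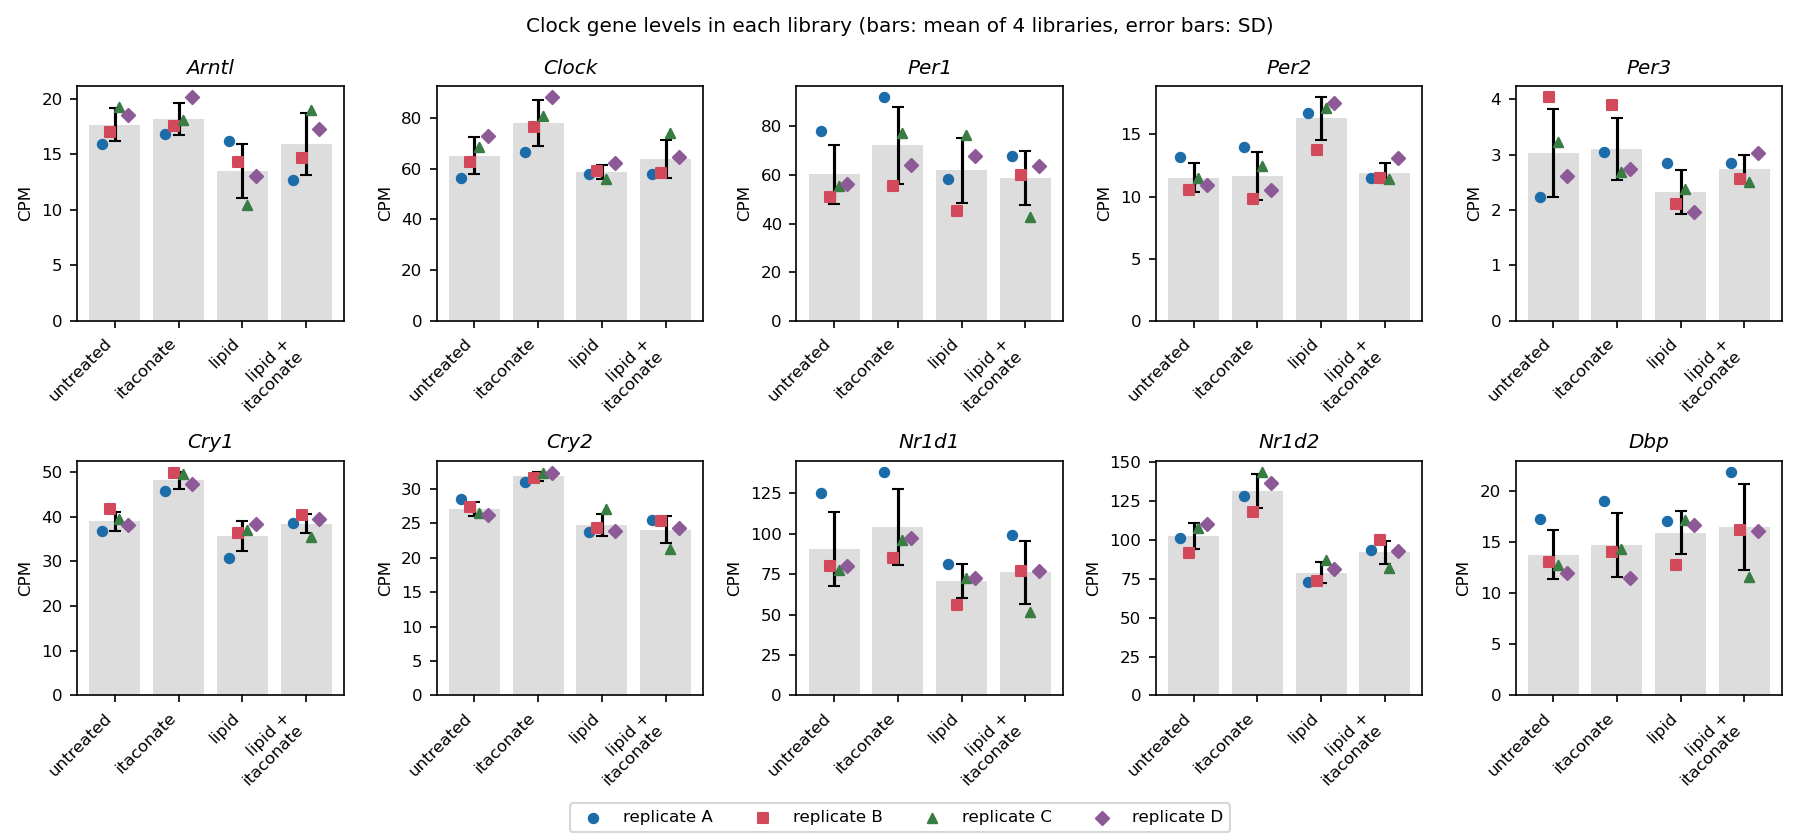
CPM of each clock gene (y axis, from 0) in the 4 treatments (x axis); bars are means of 4 libraries, error bars are SD, and each symbol is 1 library with its replicate letter. *Cry1*, *Cry2* and *Nr1d2* have all 4 itaconate libraries above all 4 untreated ones, and *Per2* has all 4 lipid libraries above all 4 untreated ones.

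Itaconate alone was followed by higher levels of *Clock*, *Cry1* and *Nr1d2*, each by 18.8 to 27.5%, and none of the clock genes fell. The test was edgeR's quasi-likelihood test on all 16 libraries with treatment and replicate letter as terms, adjusted by Benjamini-Hochberg over all genes tested, and a gene was called at an adjusted p under 0.05. By it 3 of the 10 clock genes rose where 4.91% of all genes were called (1.96% higher, 2.95% lower). All 10 fitted log2 fold changes were above 0, with a median of 0.21 against -0.00 over all genes tested. Those of *Arntl* (0.029), *Per2* (0.0037) and *Per3* (0.015) were near 0 and changed sign in 1, 5 and 3 of 23 alternative settings. Libraries of the 2 treatments did not overlap for *Cry1*, *Cry2* and *Nr1d2*, as for 7.74% of all genes. Without the replicate letter in the model no clock gene was called, with adjusted p of 0.271 for *Clock* and 0.0886 for both *Cry1* and *Nr1d2*, and 4 of the 10 had an unadjusted p under 0.05 both with and without that term, beside 21.3% and 12.8% of all genes.

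The lipid mixture was followed by a higher level of *Per2*, by 40.4%. *Arntl* fell by 23.9%, *Nr1d2* fell by 23.7% and *Nr1d1* fell by 21.2%. The lipid mixture changed much of the transcriptome, so that these 4 of 10 stand beside 47.5% of all genes called (23.8% higher, 23.7% lower), a share near that of genes in general. The median log2 fold change of the 10 was -0.15, against 0.00 over all genes tested. Libraries did not overlap for *Per2* and *Nr1d2*, as for 32.3% of all genes. Without lipid + itaconate replicate C, which enters the model through the shared spread, 7 of the 10 were called, with *Clock*, *Cry1* and *Cry2* added on the lower side, beside 51.4% of all genes.

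With itaconate added to the lipid mixture, *Per2* fell by 27.0% relative to the lipid mixture alone, and no other clock gene passed the test. This 1 of 10 compares with 2.58% of all genes called (1.32% higher, 1.26% lower), and *Per2* was also the only clock gene whose libraries did not overlap (5.67% of all genes). The median log2 fold change was 0.10, against -0.00 over all genes. When lipid + itaconate replicate C was left out, *Nr1d2* was called as well, higher by 0.32 on the log2 scale (edgeR adjusted p = 0.00522), where 7.61% of all genes were called. Replicate C held the lowest *Nr1d2* level of that treatment, so leaving it out raises the difference by construction. Removing replicate A of lipid + itaconate, or replicate C or D of lipid, left no clock gene called, and 3 then had an unadjusted p under 0.05 each time, when 0.505% to 1.24% of all genes were called and 12.4% to 16.9% had such a p.

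Relative to itaconate alone, lipid + itaconate had 5 clock genes lower and none higher. *Clock* fell by 18.3%, *Cry1* fell by 20.2% and *Cry2* fell by 24.5%. Both REV-ERB genes were lower as well, as *Nr1d1* fell by 27.1% and *Nr1d2* fell by 30.0%. These 5 of 10 compare with 47.0% of all genes called (23.5% in each direction). The median log2 fold change was -0.29 against 0.00 over all genes, and libraries did not overlap for *Cry1*, *Cry2* and *Nr1d2* (31.4% of all genes). Leaving out lipid + itaconate replicate C kept those 5 and added *Dbp* on the higher side, and leaving out its replicate B kept them and added *Per1* on the lower side, with 44.3% and 45.3% of all genes called. The 4 comparisons share libraries in pairs (untreated, itaconate, lipid and lipid + itaconate each serve in 2), so their values are given side by side and are not independent of each other.

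**Figure D3:**
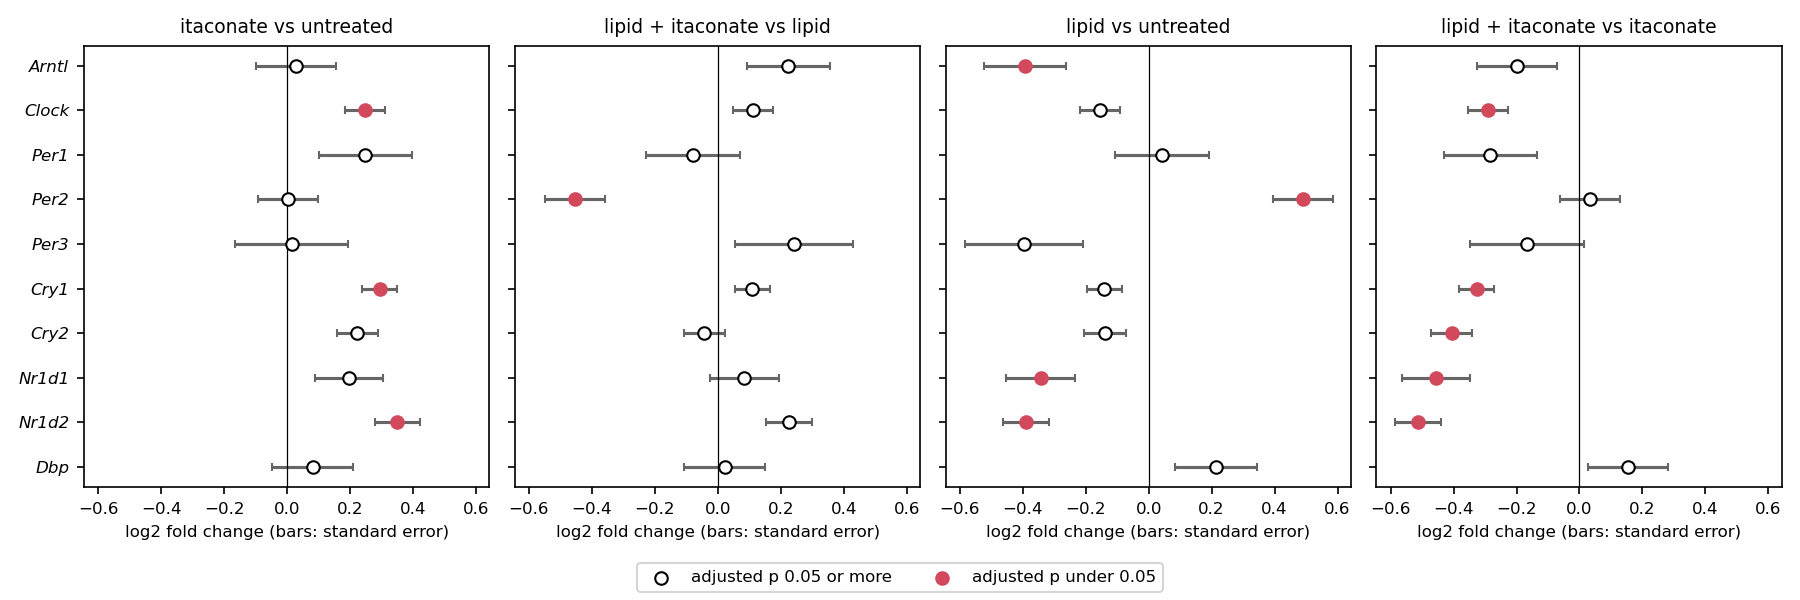
Log2 fold change (x axis) of the 10 clock genes (y axis) in 4 comparisons, with bars of 1 standard error; filled red points have an edgeR adjusted p under 0.05. Points of *Cry1*, *Clock* and *Nr1d2* lie right of 0 for itaconate against untreated and left of 0 for lipid + itaconate against itaconate, while *Per2* is right of 0 for lipid and left of 0 for lipid + itaconate against lipid.

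The interaction term asks whether the change with itaconate differed with and without the lipid mixture. No clock gene passed it, where 0.00857% of all genes (1 gene) did, and 3 had an unadjusted p under 0.05, as did 8.60% of all genes. *Per2* had the largest term, -0.46 ± 0.13 on the log2 scale (standard error), with an edgeR adjusted p of 0.336. *Cry2* (-0.27 ± 0.09, edgeR adjusted p = 0.431) and *Cry1* (-0.19 ± 0.08, edgeR adjusted p = 0.536) were the other 2. limma called none of the 10 and DESeq2 none of the 6 to which it gave an adjusted p (not *Arntl*, *Per2*, *Per3* or *Dbp*), each with 3 of the 10 at an unadjusted p under 0.05. With no filter on low values edgeR called *Per1* (log2 -0.33, adjusted p = 0.00845), where 0.918% of all genes were called. Without lipid + itaconate replicate C the terms were -0.42 for *Per2*, -0.20 for *Cry2* and -0.13 for *Cry1*, and none of the 10 was called. None was called without lipid + itaconate replicate B or without lipid replicate A either. In each of these fits 5 of the 10 had an unadjusted p under 0.05 in edgeR, beside 11.2% and 9.29% of all genes.

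Of the activators, *Arntl* (GRCm38 chr7:113207465-113314126) was one of the less abundant members. Its levels in replicates A to D were 15.9, 17.0, 19.2 and 18.5 CPM in untreated and 16.8, 17.5, 18.1 and 20.1 CPM in itaconate-treated hepatocytes. With the lipid mixture they were 16.2, 14.3, 10.4 and 13.1 CPM, and with lipid + itaconate 12.7, 14.6, 19.0 and 17.3 CPM. The lipid libraries thus lay lower on the whole but overlapped the untreated ones through replicate A. *Arntl* fell by 0.39 ± 0.13 on the log2 scale with lipid (edgeR adjusted p = 0.0209), lower in 3 of 4 letters. That call ended on removal of replicate C of the untreated group or of either C or D of the lipid group (adjusted p = 0.0680 to 0.0879), and without lipid replicate C the log2 change was -0.25. It differed by 0.03 ± 0.13 with itaconate alone (edgeR adjusted p = 0.919) and by 0.22 ± 0.13 for lipid + itaconate against lipid (adjusted p = 0.390).

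*Clock* (GRCm38 chr5:76209868-76304792), which encodes the partner of BMAL1 and is itself a histone acetyltransferase, was more abundant in CPM. Untreated libraries had 56.4, 62.8, 68.8 and 73.0 CPM and itaconate libraries 66.5, 76.4, 80.8 and 88.3 CPM. Lipid libraries had 57.9, 59.1, 56.0 and 62.3 CPM and lipid + itaconate libraries 57.9, 58.5, 74.0 and 64.8 CPM. Within each letter the itaconate library was the higher of the pair, although the treatments overlapped, since levels also differed between letters. *Clock* rose by 0.25 ± 0.06 (log2) with itaconate (edgeR adjusted p = 0.0328). Removing any 1 untreated library, or any itaconate library but replicate A, ended the call (adjusted p = 0.0619 to 0.117). It fell by 0.29 ± 0.06 for lipid + itaconate against itaconate (edgeR adjusted p = 0.00146), lower in 4 of 4 letters. The lipid mixture alone gave -0.15 ± 0.06 (edgeR adjusted p = 0.0574), which 5 of 23 alternatives called.

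The period genes encode the repressors that give the loop its delay, and *Per2* was the only 1 of the 3 that passed a pairwise test between treatments with all 16 libraries and the filter above. *Per2* (GRCm38 chr1:91415982-91459324) had 13.2, 10.5, 11.5 and 10.9 CPM in untreated and 14.0, 9.77, 12.4 and 10.5 CPM in itaconate libraries. Lipid libraries had 16.8, 13.8, 17.1 and 17.5 CPM, and lipid + itaconate libraries 11.5, 11.5, 11.4 and 13.1 CPM. All 4 lipid libraries were above every library of the 3 other treatments except itaconate replicate A, which lay just above lipid replicate B. *Per2* rose by 0.49 ± 0.10 (log2) with lipid (edgeR adjusted p = 0.000604), and the call held in all 23 alternative settings. It fell by 0.45 ± 0.09 for lipid + itaconate against lipid (edgeR adjusted p = 0.0220), and its level differed from that with itaconate alone by 0.03 ± 0.10 (adjusted p = 0.806). This second call was lost without the replicate letter in the model (adjusted p = 0.162), when only the 8 libraries compared were fitted (0.149), and after removing replicate A of lipid + itaconate or replicate C or D of lipid (0.0573 to 0.0932). Its log2 change stayed between -0.51 and -0.38 in all 23 settings.

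*Per1* (GRCm38 chr11:69095217-69109960), an immediate-early target of cyclic-AMP and glucocorticoid signals, varied widely between libraries of 1 treatment. It had 78.2, 51.0, 55.6 and 56.2 CPM in untreated, 92.0, 55.3, 77.1 and 64.3 in itaconate, 58.5, 45.3, 76.6 and 67.7 in lipid, and 67.9, 60.2, 42.8 and 63.9 CPM in lipid + itaconate libraries. It was higher with itaconate in 4 of 4 letters, yet with a log2 difference of 0.25 ± 0.15 it did not pass the test (edgeR adjusted p = 0.351). Of the 23 alternatives 2 called it, no filter and only the 8 libraries compared, where 4.34% and 15.9% of all genes were called. *Per3* (GRCm38 chr4:151003652-151044665), whose product is dispensable for the core oscillation, was scarce at 1.96 to 4.04 CPM in the 16 libraries, with 48 to 116 counts. Its largest difference was -0.40 ± 0.19 (log2) with lipid (edgeR adjusted p = 0.0945). It was called lower without untreated replicate A (log2 -0.54, edgeR adjusted p = 0.0306) or without lipid replicate A (-0.53, edgeR adjusted p = 0.0406), and in none of the other 21 settings.

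The cryptochromes are the strongest repressors of the activator, and both were at their highest with itaconate alone. *Cry1* (GRCm38 chr10:85131700-85185064) had 36.7, 41.7, 39.5 and 38.1 CPM in untreated and 45.8, 49.8, 49.6 and 47.4 CPM in itaconate libraries. Lipid libraries had 30.7, 36.4, 37.2 and 38.4 CPM and lipid + itaconate libraries 38.6, 40.5, 35.4 and 39.4 CPM. Every itaconate library was above every library of the 3 other treatments. *Cry1* rose by 0.29 ± 0.06 (log2) with itaconate (edgeR adjusted p = 0.00776) and fell by 0.33 ± 0.06 for lipid + itaconate against itaconate (edgeR adjusted p = 0.000232). Dropping the letter term ended the first call, the only one of 23 settings to do so, and the second call held in all 23. With lipid alone the log2 change was -0.14 ± 0.06 (edgeR adjusted p = 0.0520), which 5 of 23 alternatives called.

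*Cry2* (GRCm38 chr2:92403646-92434043) had 28.4, 27.3, 26.4 and 26.2 CPM in untreated and 31.0, 31.6, 32.3 and 32.3 CPM in itaconate libraries. It had 23.8, 24.3, 27.1 and 23.9 CPM with lipid and 25.5, 25.3, 21.3 and 24.2 CPM with lipid + itaconate. As for *Cry1*, the 4 itaconate libraries were above all 12 others. The log2 difference with itaconate was 0.22 ± 0.06 and missed the threshold (edgeR adjusted p = 0.0572), while 6 of 23 alternatives called it, DESeq2 among them (adjusted p = 0.0362). *Cry2* fell by 0.41 ± 0.06 for lipid + itaconate against itaconate (edgeR adjusted p = 0.000135), in all 23 settings. For lipid + itaconate against lipid it differed by -0.04 ± 0.07 (edgeR adjusted p = 0.783).

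The REV-ERB genes link the clock to lipid and bile acid metabolism in the liver and had the highest mean CPM of the 10. *Nr1d2* (GRCm38 chr14:18204054-18239127) had 101, 91.6, 107 and 110 CPM in untreated and 128, 118, 144 and 137 CPM in itaconate libraries. Lipid libraries had 73.0, 73.8, 87.1 and 81.5 CPM and lipid + itaconate libraries 93.5, 100.1, 81.8 and 92.6 CPM. The untreated, itaconate and lipid libraries formed 3 ranges that did not overlap, with lipid lowest and itaconate highest. *Nr1d2* rose by 0.35 ± 0.07 (log2) with itaconate (edgeR adjusted p = 0.0126), a call lost without the replicate letter, without untreated replicate B (adjusted p = 0.0535) or without itaconate replicate C (0.0719). It fell by 0.39 ± 0.07 with lipid (edgeR adjusted p = 0.000472) and by 0.51 ± 0.07 for lipid + itaconate against itaconate (edgeR adjusted p = 4.56e-05), both in all 23 settings. Lipid + itaconate stood 0.23 ± 0.07 above lipid (edgeR adjusted p = 0.115), higher in 3 of 4 letters.

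*Nr1d1* (GRCm38 chr11:98767932-98775333) had 125, 80.1, 77.8 and 79.9 CPM in untreated and 138, 85.3, 96.1 and 97.2 CPM in itaconate libraries. Lipid libraries had 81.5, 56.1, 72.9 and 72.8 CPM and lipid + itaconate libraries 99.2, 77.2, 51.6 and 76.7 CPM. Replicate A was the highest in each treatment, and the treatments overlapped in every comparison. *Nr1d1* fell by 0.34 ± 0.11 (log2) with lipid (edgeR adjusted p = 0.0167), lower in 4 of 4 letters, and by 0.46 ± 0.11 for lipid + itaconate against itaconate (edgeR adjusted p = 0.00291). Without the replicate letter both calls were lost (adjusted p = 0.155 and 0.0779), and the first was also lost without untreated replicate A, lipid replicate A or lipid replicate B (0.0648 to 0.0761). With itaconate alone it differed by 0.20 ± 0.11 (edgeR adjusted p = 0.306), and 2 of 23 alternatives called it, no filter and only the 8 libraries compared. Its exons share 263 bases (8.55% of its exon length) with *Thra* on the opposite strand, but *Thra* was at 2.68 to 5.37 CPM, well below *Nr1d1*.

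*Dbp* (GRCm38 chr7:45705088-45710203), an output factor that drives daily expression of drug- and sterol-metabolizing enzymes, passed none of the tests between treatments. It had 17.2, 13.0, 12.7 and 12.0 CPM in untreated and 18.9, 14.0, 14.3 and 11.5 CPM in itaconate libraries. Lipid libraries had 17.0, 12.7, 17.1 and 16.6 CPM and lipid + itaconate libraries 21.8, 16.2, 11.6 and 16.1 CPM. The 4 treatments overlapped, and the log2 difference with lipid was 0.21 ± 0.13 (edgeR adjusted p = 0.186). For lipid + itaconate against itaconate it was 0.15 ± 0.13 (edgeR adjusted p = 0.337), and without lipid + itaconate replicate C it was 0.30 (edgeR adjusted p = 0.0331). That replicate held the lowest *Dbp* level of its treatment, so leaving it out raises the difference by construction. *Dbp* shares 539 bases of exon (18.0% of its exon length) with *Sphk2* on the opposite strand, which was at 18.9 to 22.6 CPM. Whether the counting used strand is not given in the sources used here, so reads of *Dbp* and *Sphk2* may be mixed in that stretch.

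The replicate letter itself went with differences in 3 clock genes. *Nr1d1* (edgeR adjusted p = 0.00275), *Clock* (0.0171) and *Dbp* (0.0351) passed the test of the letter term, as did 25.8% of all genes. Mean *Nr1d1* over the 4 treatments was 111 CPM in replicate A against 74.7, 74.6 and 81.7 CPM in B, C and D, and A was the highest letter in 4 of 4 treatments. *Dbp* averaged 18.8 CPM in A and 14.0, 13.9 and 14.0 CPM in the others, and *Clock* averaged 59.7 CPM in A, 64.2 in B, 69.9 in C and 72.1 in D. Replicate A was thus high in a REV-ERB gene and an output gene and low in an activator. The count of called members dropped from 3 to 1 without untreated replicate A or without itaconate replicate A, and rose to 5 without lipid + itaconate replicate B or C. The share of all genes called moved as well, to 18.3%, 19.4%, 25.2% and 34.2% in that order.

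Of 62 other genes listed around the clock, 58 were tested (*Rorb*, *Fbxl21*, *Cyp2a4* and *Cyp7a1* were under the filter). With itaconate 2 of the 58 (3.45%) were higher and none lower, where 4.91% of all genes were called, both of them clock partners that bind the same promoter elements as the REV-ERB proteins or DBP. *Rora*, which activates *Arntl* through the sites that REV-ERB proteins repress, was higher at 99.4 ± 5.50 CPM (SD, n = 4) than the 80.7 ± 1.97 CPM of untreated cells (log2 0.29, edgeR adjusted p = 0.00232). *Nfil3*, a repressor at D-boxes, was higher at 113 ± 6.15 against 92.5 ± 2.31 CPM (log2 0.28, edgeR adjusted p = 0.00336). In both, the 4 itaconate libraries lay above the 4 untreated ones, and both calls were lost without the replicate letter in the model but held in the other 22 settings. Without lipid + itaconate replicate B 6 listed genes were called, and without its replicate C 8. None of the 19 clock protein modifiers, 14 rhythmic liver outputs or 12 glucocorticoid and serum-response genes tested passed. Of these, 3 of 19, 6 of 14 and 4 of 12 had an unadjusted p under 0.05, against 21.3% of all genes. The median log2 fold change of the 58 was 0.05, against -0.00 over all genes.

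With lipid, 10 of the 58 were higher and 16 lower (44.8%, against the 47.5% of all genes). Among 13 clock partners 3 rose and 1 fell. *Timeless* (log2 0.54) and *Tipin* (0.50), which guard the replication fork, were higher, and *Rora* fell by 15.3%. Among 19 clock protein modifiers 3 rose and 6 fell. The deacetylase *Sirt1* fell by 0.30 on the log2 scale, and *Prkaa2*, a catalytic subunit of AMP-activated kinase, and *Btrc*, a ligase subunit for PER proteins, rose by 0.39 and 0.30.

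Among 14 rhythmic liver outputs tested, 2 rose and 6 fell with lipid. *Pdk4*, which restrains glucose oxidation, had the largest change of any listed gene and fell from 306 ± 47.8 to 122 ± 18.0 CPM (log2 -1.34, edgeR adjusted p = 1.58e-08). *Lpin1*, a phosphatidate phosphatase, fell by 0.91 and the gluconeogenic *Pck1* by 0.61, whereas the cell cycle kinase *Wee1*, an E-box target of the activator, rose by 0.71. Of 12 glucocorticoid and serum-response genes 2 rose and 3 fell, and the glucocorticoid targets did not move together: *Zbtb16* (0.76) and *Tsc22d3* (0.48) rose, while *Sgk1* fell by 0.44 and the immediate-early gene *Fos* by 0.37. The *Sgk1* call was lost without any 1 of replicates A, C and D of untreated or A, B and D of lipid, and those of *Sgk1*, *Fos* and *Pck1* without the replicate letter.

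With itaconate on top of lipid, 3 of the 58 were higher and 1 lower than with lipid alone (6.90%, against the 2.58% of all genes, 1.32% higher and 1.26% lower). *Pdk4* (log2 0.47) and *Cyp2a5* (0.26) were among those that rose. All 4 calls were lost when the letter term was dropped, when the fit held only the 8 libraries compared, and when lipid + itaconate replicate A was left out. Leaving out a lipid library gave 1 call (replicate A) or 2 (C and D alike), and leaving out a lipid + itaconate library gave 2 (replicate B) or 8 (replicate C, where 7.61% of all genes were called). With lipid against untreated, which shares the lipid libraries with this comparison, the log2 changes of *Pdk4* and *Cyp2a5* were -1.34 and -0.20. Against itaconate alone, lipid + itaconate had 9 of the 58 higher and 22 lower (53.4%, against the 47.0% of all genes, 23.5% in each direction). Without lipid + itaconate replicate C 27 of the 58 were called, beside 44.3% of all genes. By list these were 3 higher and 4 lower of 13 partners, 3 and 5 of 19 modifiers, 1 and 7 of 14 outputs, and 2 and 6 of 12 input genes. Among the outputs *Pdk4* (log2 -1.09), *Pck1* (-0.88), *Lpin1* (-0.65) and *Elovl3* (-0.51), a fatty acid elongase, had the largest changes, and all 4 were lower. Among the inputs *Sgk1* (-0.65), *Fos* (-0.45) and *Nr3c1* (-0.41) were lower and *Zbtb16* (0.40) was higher. Among the partners *Tipin* (0.57) and *Timeless* (0.50) were higher, and *Ciart* (-0.51) and *Rora* (-0.41) were lower. Among the modifiers *Sirt1* (-0.36) and the kinase *Gsk3a* (-0.25) were lower and *Btrc* (0.26) was higher, the last of which was not called without itaconate replicate B. *Nr3c1* is the glucocorticoid receptor, and *Ciart* encodes a repressor of CLOCK and BMAL1. No listed gene passed the interaction test in edgeR, although 3 did with no filter on low values, and 11 of the 58 had an unadjusted p under 0.05, against 8.60% of all genes.

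**Figure D4:**
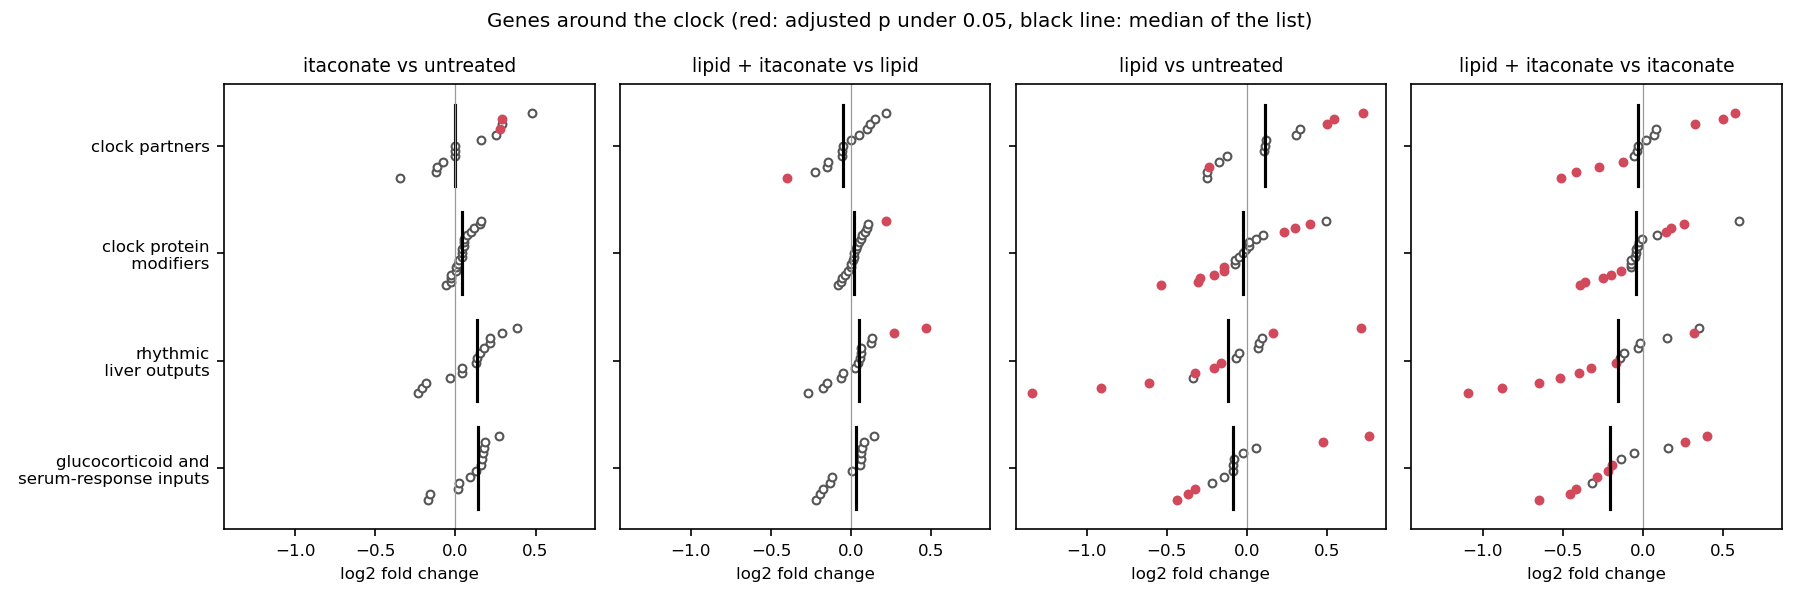
Log2 fold changes (x axis) of the 58 tested genes of 4 lists (rows) in 4 comparisons; each point is 1 gene, red where the edgeR adjusted p is under 0.05, and the black line is the median of the list. Itaconate against untreated has 2 red points, both *Rora* and *Nfil3* among the clock partners, while both comparisons with and without lipid have red points on both sides of 0 in every list.

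Some markers of other liver cells were called with the lipid mixture, in a comparison where 47.5% of all genes were called. Of 7 macrophage markers tested, *Cd68* was higher and *Adgre1*, *Marco* and *Cd5l* were lower with lipid, and the summed markers ran from 180 to 287 CPM in untreated and from 232 to 327 CPM in lipid libraries, most of it *Cd68*. The 3 bile duct markers tested, *Sox9* and *Spp1* among them, were all lower with lipid, while *Krt19*, *Krt7* and *Epcam* were near 0. Their summed level was 608 to 1177 CPM in untreated and 343 to 620 CPM in lipid libraries. Of 10 hepatocyte markers 1 was higher and 2, *Alb* and *Ttr*, were lower, and of 7 endothelial markers tested *Lyve1* was higher and *Stab2* lower. With itaconate alone, where 4.91% of all genes were called, *Lyz2* was higher and *Cd68* and *Oit3* were lower. No hepatocyte, stellate or bile duct marker passed. For lipid + itaconate against itaconate 47.0% of all genes were called. There 1 macrophage marker was higher and 6 were lower, and all 3 bile duct markers were lower. Of the hepatocyte markers 1 was higher and 5 were lower. The part of these markers' cells in the clock gene differences was not tested.

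The genes most like *Arntl* over the 16 libraries, by Pearson's r of log2 CPM after removing letter means among 9286 genes, were *Sort1* (r = 0.97), *Pknox1* (0.96) and *Nek6* (0.93), and the least alike were *Fam118a* (-0.96), *Epm2a* (-0.93) and *Smtnl2* (-0.93). For *Dbp* they were *Alg11* (0.95), *Ostf1* (0.94) and *Eif4e* (0.93), against *Xbp1* (-0.94), *Clptm1* (-0.90) and *Cd59a* (-0.90). These values describe likeness over libraries that share treatments and letters, picked from many genes, and carry no test.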

How the data were processed

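RNA of 16 hepatocyte libraries was sequenced after stranded mRNA library preparation. Per the labels and the study's methods, reads were demultiplexed with bcl2fastq 2.20, trimmed with cutadapt 1.18, aligned to mm10 with STAR 2.7.0f, checked with Picard 2.18.26 and quantified with RSEM 1.3.1. The values the authors deposited are the expected counts per gene (5.41% of values were not whole), with no normalization, filter or batch removal; all columns were used. The counting's strand setting is not given in the sources used here.

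Rounded expected counts were tested with edgeR 4.0.16 under R 4.3.3 (TMM, filter of mean CPM of at least 1, 11675 genes, quasi-likelihood test, terms for treatment and replicate letter, Benjamini-Hochberg over all genes tested, threshold 0.05). Log2 CPM used a prior count of 0.5. Standard errors are the log2 change divided by the square root of F. Same-letter libraries deviated together (24 correlations, 0.144 to 0.469; other-letter pairs, median -0.114), so the letter was kept. Alternatives were no letter, RLE normalization, filterByExpr or no filter, DESeq2 1.42.0, limma 3.58.1, only the 8 libraries compared, and leaving out each library. Positions and lengths came from GENCODE M21 (GRCm38; all 55450 rows matched). Scripts were tested on simulated data. Clock genes were always named; of 4 pathway lists, those called with the largest changes, at most 4 per list and comparison, and values of some listed genes are not reported here. Members and lists were chosen with earlier results of these data known. Depth was 22346049 to 35512004 counts per library, and SDs cover the spread between these libraries only.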

Additional observations from a re-analysis of the deposited data

Results flagged for a closer look

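Of the 40 sets of 4 libraries (10 clock genes in 4 treatments), 4 held a library whose gap to the nearest other was large for the range of its set by Dixon's test at 95%; chance alone flags about 1 set in 20. *Nr1d1* in untreated replicate A was at 125 CPM where the other 3 untreated libraries were at 77.8 to 80.1 CPM, and *Nr1d1* was also highest in replicate A in the other treatments. *Per2* in lipid + itaconate replicate D was at 13.1 CPM where the others were at 11.4 to 11.5 CPM. *Cry2* in lipid replicate C was at 27.1 CPM where the others were at 23.8 to 24.3 CPM. *Dbp* in lipid replicate B was at 12.7 CPM where the others were at 16.6 to 17.1 CPM.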

How the results depend on the processing

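Over 22 or 23 alternatives per comparison, the 10 clock genes in 5 comparisons gave 1051 values with the same direction and side of the threshold, 30 that gained and 25 that lost a call, and 30 that changed sign, none of them called. DESeq2 gave no adjusted p for 4 clock genes in the interaction, which are left out of these counts. Clock genes called for itaconate against untreated went from 3 to 0 with no replicate block, to 6 with no filter and to 6 with only the 8 libraries compared, and ranged from 1 to 4 when 1 library was left out. For lipid + itaconate against lipid, 1 became 0 with no replicate block, 2 with no filter and 0 with only the 8 libraries (0 to 2 leaving out 1 library). For lipid against untreated the range leaving out 1 library was 3 to 7, and for the letter term 1 to 5. The interaction term gave 1 (*Per1*) with no filter in place of 0. The replicate block changed no other call of a clock gene than those given with the genes. Genes called over the whole table for itaconate against untreated were 573, but 23 with no replicate block and 1859 with only the 8 libraries, and 301, 9 and 14 for lipid + itaconate against lipid. No filter gave 1091 and 725, and DESeq2 gave 791 and 509. Leaving out 1 library gave 149 to 1047 and 59 to 889. The interaction term called 1 gene, against 2 with RLE normalization or filterByExpr, 231 with no filter, 36 with DESeq2, 0 with no replicate block and 0 to 8 leaving out 1 library. The cause of these differences was not tested. For the 58 listed genes the same alternatives, added after seeing the data, gave 841 of 874 values of the named genes on the same side of the threshold, and in 33 the call was lost with the direction kept. Listed genes called with itaconate went from 2 to 0 with no replicate block, 14 with no filter, 6 with DESeq2 and 21 with only the 8 libraries (2 to 8 leaving out 1 library). For lipid + itaconate against lipid, 4 became 0 with no replicate block and 0 with only the 8 libraries (0 to 8 leaving out 1 library), and the interaction gave 3 with no filter in place of 0.

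Signs changed for values near 0. Leaving out 1 library gave log2 ranges for itaconate against untreated of -0.0044 to 0.073 for *Arntl*, -0.067 to 0.073 for *Per2* and -0.12 to 0.16 for *Per3*. The range was -0.12 to 0.17 for *Per1* with lipid and -0.039 to 0.11 for *Per2* for lipid + itaconate against itaconate. For lipid + itaconate against lipid it was -0.21 to 0.094 for *Per1*, -0.079 to 0.027 for *Cry2*, -0.020 to 0.22 for *Nr1d1* and -0.078 to 0.17 for *Dbp*. In the interaction it was -0.22 to 0.027 for *Nr1d1* and -0.16 to 0.086 for *Dbp*. With limma, *Per2* for itaconate against untreated was at -0.00088. Depth limits *Per3* most, at 48 to 116 counts per library.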
